A study of Homo sapiens with 6 samples.

Results

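Of 10 genes of prostaglandin synthesis and signalling, PTGS1, the gene of cyclooxygenase 1, differed most between 786-O cells with a METTL3 short hairpin RNA (shRNA) and cells with a control shRNA. Its mean level was 54.7 CPM in the knockdown group and 11.7 CPM in the control group. Of the 9 others, 7 were tested and 0 were called in either direction, beside 16.5% of all tested genes called higher and 16.9% lower. PTGIS and HPGD were left out by the filter on low counts. The 10 were taken by their symbols from 61860 gene rows: PTGS1, PTGS2, PTGES, PTGES2, PTGIS, TBXAS1, PTGER2, PTGER4, HPGD and PLA2G4A. PTGS1 was included for its large rise in this same comparison, so its values are a description with no test.

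786-O is an established cancer line from a clear cell carcinoma of the kidney, which arises in tubule epithelium, and lacks functional VHL. The cells stably expressed a control shRNA (3 libraries) or an shRNA against METTL3 (3 libraries), the catalytic subunit of the enzyme that writes N6-methyladenosine (m6A) on mRNA. No other treatment is named for either group, and the labels do not say whether the lines were clones or pools, or whether replicate libraries represent independent cultures. P-values therefore reflect only how these libraries vary, which may be technical. The comparison belongs to a study of m6A in renal cancers rich in L-2-hydroxyglutarate, and RNA was sequenced after removal of ribosomal RNA. m6A itself and prostaglandins were not measured in the files used here.

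Total counts ran from 102420127 to 103624456 in the control libraries and from 100534896 to 101473388 in the knockdown libraries. The libraries are called A, B and C after the letters of the deposited columns, which were not taken to pair libraries across groups. METTL3 itself had 3874 to 4141 counts in the control libraries and 956 to 1145 in the libraries labelled as knockdown (log2 fold change -1.80, SE 0.08, edgeR adjusted p = 1.45e-07). Its exons overlap those of TOX4 on the opposite strand. Summed over 7 epithelial and renal markers, levels were 459 to 517 CPM in the control and 482 to 522 CPM in the knockdown libraries, carried by KRT8, KRT18 and PAX8, while CDH1 (E-cadherin) had at most 11 counts. CPM are counts relative to the library total after TMM adjustment, and FPKM are deposited values scaled also to transcript length, used wherever genes are compared with each other. In bulk RNA, fewer cells that express a gene and less of its RNA per cell cannot be told apart.

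Prostaglandins are lipid signals made from arachidonic acid, which phospholipases such as PLA2G4A free from membranes. The cyclooxygenases PTGS1 and PTGS2 turn it into the common precursor prostaglandin H, from which terminal synthases make prostaglandin E (PTGES, PTGES2), prostacyclin (PTGIS) or thromboxane (TBXAS1). Prostaglandin E acts on cell surface receptors that include PTGER2 and PTGER4, both of which raise cAMP, and HPGD oxidises it to an inactive form. In the kidney these lipids act on blood flow and on salt and water handling. PTGS1 is commonly described as the constitutive enzyme and PTGS2 as the one induced by cytokines and growth factors.

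The sequences just upstream of the start sites are shown for both cyclooxygenases, because the pair differed in these data. Each is the 250 bases before a RefSeq start (GRCh38.p14), written 5′ to 3′ on the gene's strand, and PTGS1 has a pair of starts. Capitals mark, on either strand, the motifs searched: the GC box GGGCGG, the TATA box with the letters TATAAA, the cAMP response half-site TGACG, the core ACGTG of the hypoxia response element, and the CCAAT box.
PTGS1, chr9:122370283-122370532, plus strand: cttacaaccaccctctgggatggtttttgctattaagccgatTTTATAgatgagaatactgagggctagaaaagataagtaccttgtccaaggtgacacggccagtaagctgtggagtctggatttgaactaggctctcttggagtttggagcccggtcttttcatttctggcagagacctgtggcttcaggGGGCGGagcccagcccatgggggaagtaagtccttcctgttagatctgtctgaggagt
PTGS1, chr9:122375052-122375301, plus strand: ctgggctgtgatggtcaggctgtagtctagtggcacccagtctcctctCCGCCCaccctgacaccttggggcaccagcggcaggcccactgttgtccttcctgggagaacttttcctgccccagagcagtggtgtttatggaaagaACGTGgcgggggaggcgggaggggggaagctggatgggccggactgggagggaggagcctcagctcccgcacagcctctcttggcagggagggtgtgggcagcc
PTGS2, chr1:186680424-186680673, minus strand: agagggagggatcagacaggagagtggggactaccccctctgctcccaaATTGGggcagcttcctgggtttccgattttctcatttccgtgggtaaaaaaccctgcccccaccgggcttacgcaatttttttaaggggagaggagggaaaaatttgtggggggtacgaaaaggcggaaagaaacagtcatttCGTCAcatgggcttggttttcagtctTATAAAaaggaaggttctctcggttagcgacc
The first PTGS1 window holds GGGCGG at positions -58 to -53, counted back from the start, and TATAAA at -208 to -203. The second holds ACGTG at -104 to -100 and GGGCGG at -202 to -197. The PTGS2 window holds TATAAA at -32 to -27, TGACG at -58 to -54 and CCAAT at -201 to -197. Of 35116 windows of the same length in the table, GGGCGG occurred in 42.6%, CCAAT in 32.0%, TGACG in 21.2%, ACGTG in 18.5% and TATAAA in 10.7%. G and C made up 49.6% and 65.2% of the PTGS1 windows and 50.4% of the PTGS2 window. These matches are letters in a window, and binding of any factor was not measured.

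Because METTL3 writes m6A mostly within short motifs of which GGACU is the best known, the GGACT pentamers of both cyclooxygenase mRNAs were also located, on 1 reference transcript each of GENCODE 29. They are shown in capitals with the 8 bases on either side, and the coordinates (GRCh38) are those of the pentamer.
PTGS1, coding, chr9:122386678-122386682, plus strand: atgttggtGGACTatggggtt
PTGS1, coding, chr9:122392257-122392261, plus strand: tctaccctGGACTgcttcttg
PTGS1, 3′ UTR, chr9:122394972-122394976, plus strand: gcctggagGGACTtttaatca
PTGS2, coding, chr1:186676910-186676914, minus strand: catggggtGGACTtaaatcat
PTGS2, coding, chr1:186674609-186674613, minus strand: ccttgaaaGGACTtatgggta
PTGS2, coding, chr1:186674405-186674409, minus strand: cccgctccGGACTagatgata
PTGS2, 3′ UTR, chr1:186672996-186673000, minus strand: ctttctttGGACTctgcctat
PTGS2, 3′ UTR, chr1:186672936-186672940, minus strand: tcagctcaGGACTgctattta
The PTGS1 transcript holds 3 pentamers in 5039 bases, or 0.595 per kilobase, which lies at the 27.0th percentile of 13816 transcripts of tested coding genes, whose median is 0.946. The PTGS2 transcript holds 5 in 4514 bases (1.11 per kilobase, 59.7th percentile). Among the other members the density ran from 0.348 per kilobase in PLA2G4A to 1.37 in TBXAS1. A pentamer is not a measured m6A site.

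PLA2G4A, the cytosolic phospholipase that frees arachidonic acid (chromosome 1, 186828953 to 186988981), was weakly expressed. The control group (A, B and C) gave 43, 46 and 46 counts, and the knockdown group 65, 65 and 45. Knockdown A and B were above every control library, while knockdown C had a count within the control range. In CPM the means were 0.421 ± 0.0095 and 0.602 ± 0.133 (SD, n = 3 each), and knockdown C lay just above the controls once scaled. The difference did not pass the test (log2 fold change 0.51, SE 0.24, edgeR adjusted p = 0.110), and the unadjusted 95% interval of the fold ran from 1.00 to 2.03. Without knockdown C it passed (0.69, adjusted p = 0.0414), as it did without the C libraries of both groups (0.68, adjusted p = 0.0431).

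PTGS1 (ENSG00000095303, chromosome 9, 122370530 to 122395703, plus strand, 11 exons in its reference transcript) makes prostaglandin H in most resting tissues and is the target of low-dose aspirin in platelets. The control group (A, B and C) gave 1457, 1472 and 808 counts, and the knockdown group 5607, 6680 and 3606. The groups were far apart, and library C was the lowest of its group on both sides. In CPM the control libraries were at 14.0, 13.8 and 7.34 and the knockdown libraries at 59.3, 68.7 and 36.0. The means were 11.7 ± 3.79 and 54.7 ± 16.9 CPM (SD, n = 3 each), which differed by 2.22 on the log2 scale (SE 0.24). In the deposited FPKM the values were 3.13, 3.13 and 1.69 in the control libraries and 12.5, 14.8 and 7.92 in the knockdown libraries. Among the 12526 tested genes with a mean of at least 2 CPM, its rise, for which it was chosen, was the 3rd largest. Without the C libraries of both groups the log2 fold change was 2.21.

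The spread of PTGS1 between libraries of a group was wide for its level, which the choice of the gene did not use. Its pooled within-group SD of log2 CPM was 0.51, at the 93.2th percentile of all tested genes and above nearly all of the 4798 genes whose mean level lay within 2-fold of its own (99.98th percentile). The spread came from the C library in each group. Among the other members, PTGER2 (95.2th percentile of all tested genes) and PTGES (81.9th) were also variable, and PTGER2 and PTGES were each lowest in knockdown C.

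**Figure D1:**
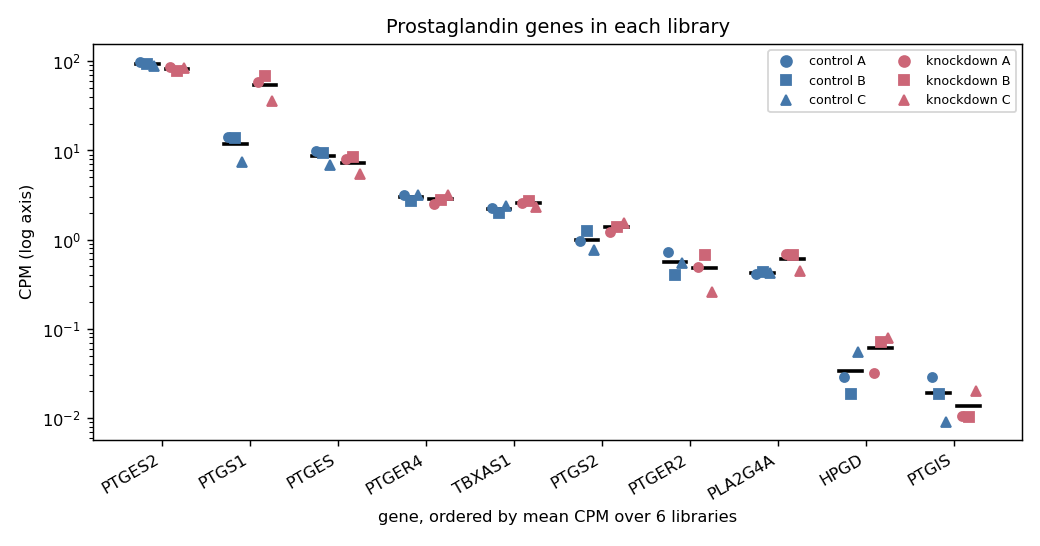
CPM (log axis) of the 10 prostaglandin genes in each of the 6 libraries, with control in blue, knockdown in red, the letter of the library as the symbol and the group mean as a bar. PTGS1 is the gene whose groups lie far apart, with means of 11.7 and 54.7 CPM, and its C libraries are the lowest of both groups.

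PTGS2, cyclooxygenase 2 (ENSG00000073756, chromosome 1, 186671791 to 186680427, minus strand, 10 exons), stayed near 1 CPM. The control group (A, B and C) gave 101, 132 and 84 counts, and the knockdown group 115, 136 and 154. The groups overlapped, since control B was above knockdown A. The means were 0.990 ± 0.238 and 1.38 ± 0.160 CPM (SD, n = 3 each). The difference did not pass the test (log2 fold change 0.48, SE 0.20, edgeR adjusted p = 0.0770), with an unadjusted 95% interval of 1.04- to 1.88-fold. It passed without control library B (0.68, adjusted p = 0.0398).

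Per length, PTGS1 was the main cyclooxygenase transcript in every library. It made up 92.1%, 91.3% and 86.7% of the summed FPKM of PTGS1 and PTGS2 in the control group, and 97.9%, 97.7% and 95.7% in the knockdown libraries. The ratio of PTGS1 to PTGS2 ran from 6.5 to 11.6 in the control and from 22 to 46.3 in the knockdown libraries, without overlap. These ratios carry the difference for which PTGS1 was chosen and are given as a description.

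Terminal synthases came next in the pathway. PTGES2, a membrane-associated prostaglandin E synthase (chromosome 9, 128120693 to 128128462, minus strand), was the most abundant member. It reached 10235, 9828 and 9666 counts in the control group and 8166, 7569 and 8428 in the knockdown group, and every knockdown library was below every control library. The means were 92.8 ± 5.28 and 82.8 ± 4.41 CPM (SD, n = 3 each), a difference that did not pass (log2 fold change -0.16, SE 0.08, edgeR adjusted p = 0.119). It passed when libraries were scaled by their total alone (-0.27, adjusted p = 0.0134) and in limma fits of FPKM (adjusted p from 0.0128 to 0.0325). Scaling by the total moved the median of all genes from -0.0030 to -0.11 on the log2 scale.

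PTGES, the inducible microsomal prostaglandin E synthase (chromosome 9, 129738331 to 129753047, minus strand), had 1036, 1008 and 764 counts in the control libraries and 752, 823 and 547 in the knockdown libraries. The groups overlapped, and library C was the lowest of each. The means were 8.78 ± 1.61 and 7.30 ± 1.61 CPM (SD, n = 3 each; log2 fold change -0.27, SE 0.16, edgeR adjusted p = 0.222), with a fold interval of 0.652 to 1.06.

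TBXAS1, thromboxane synthase (chromosome 7, 139777051 to 140020325, plus strand), had 236, 213 and 261 counts in the control and 246, 266 and 234 in the knockdown libraries, which overlapped (log2 fold change 0.21, SE 0.14, edgeR adjusted p = 0.270). PTGIS, prostacyclin synthase (chromosome 20, 49503874 to 49568146), had 3, 2 and 1 counts in the control and 1, 1 and 2 in the knockdown libraries, at most the 3 counts taken as the detection floor, and was left out of the test by the filter on low counts.

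The receptors did not pass either. PTGER4 (chromosome 5, 40679498 to 40693735, plus strand) had 328, 288 and 351 counts in the control and 237, 272 and 321 in the knockdown libraries, with overlapping groups at 3.01 ± 0.271 and 2.84 ± 0.349 CPM (SD, n = 3 each; log2 fold change -0.09, SE 0.14, edgeR adjusted p = 0.663). PTGER2 (chromosome 14, 52314305 to 52328606, plus strand) had 76, 43 and 60 counts in the control and 47, 66 and 26 in the knockdown libraries. Its groups overlapped widely (log2 fold change -0.23, SE 0.32, edgeR adjusted p = 0.623), and its interval from 0.528- to 1.39-fold does not exclude a sizeable change in either direction.

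HPGD, the dehydrogenase that inactivates prostaglandin E (chromosome 4, 174490177 to 174523154), had 3, 2 and 6 counts in the control and 3, 7 and 8 in the knockdown libraries. It was left out of the test by the filter on low counts, and a difference was not detectable at this depth.

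Of the 9 members other than PTGS1, 7 passed the filter on low counts, and 0 were called higher and 0 lower (edgeR, adjusted over all 18740 genes tested). Of all tested genes, 16.5% were called higher and 16.9% lower. At an unadjusted p under 0.05 the members were PTGS2 and PLA2G4A, both higher. The share of all tested genes under that looser threshold was not counted. It cannot be below the share called after adjustment, so no excess among the members can be read from PTGS2 and PLA2G4A. DESeq2 called 0 of these members in either direction. The median log2 fold change of the 7 was -0.09, beside -0.0030 over all genes tested. The CPM of the groups did not overlap for 2 of the 7, PTGES2 (lower) and PLA2G4A (higher), where 47.4% of all tested genes had groups without overlap.

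Ordered by control FPKM, PTGES2 stood first at 71.7 ± 1.93, then PTGES at 6.13 ± 0.975, TBXAS1 at 3.37 ± 0.516, PTGS1 at 2.65 ± 0.831 and PTGER4 at 1.2 ± 0.217 (SD, n = 3 each). PTGS2 at 0.277 ± 0.0208, PTGER2 at 0.267 ± 0.0751 and PLA2G4A at 0.167 ± 0.0058 followed. The control ranges of TBXAS1 and PTGS1 overlapped, as did those of PTGS2 and PTGER2, so neither pair can be ordered. In the knockdown libraries PTGS1 was second of the 10 in every library, behind PTGES2, after being 3rd or 4th in the controls. The summed FPKM of the members was 82.6 to 89.2 in the control and 77.9 to 83.5 in the knockdown libraries, since PTGES2 made up most of it.

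The deposited counts and FPKM did not move together for every member. Dividing counts by FPKM and the library total gives the transcript length, in bases, that relates them. For PTGER4 this implied length was 2261, 2899 and 2780 in the control group and 1684, 2114 and 2704 in the knockdown group. It varied by 19.5% (coefficient of variation over 6 libraries), at the 99.4th percentile of genes. The percentiles of this paragraph are among genes above a floor of mean counts and of FPKM in every library. That set leaves out PTGER4 and PTGS2 themselves, which are weaker. For TBXAS1 the implied length was 694, 715 and 647 in the control and 735, 976 and 801 in the knockdown libraries, higher in every knockdown library (15.3%, 98.5th percentile). For PTGS2 it ran from 3147 to 4296 bases (11.6%, 96.3th percentile), which enters the FPKM ratios of PTGS1 to PTGS2 above, and for PTGS1 it stayed between 4462 and 4657 bases (1.77%). As a result the sign for PTGER4 and TBXAS1 depends on the table: on log2(FPKM + 1), limma gave 0.06 for PTGER4 and -0.14 for TBXAS1 (adjusted p = 0.687 and 0.349), opposite to the signs from counts. Neither table gave a call for either gene. The sources used here do not say which transcripts were counted.

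**Figure D2:**
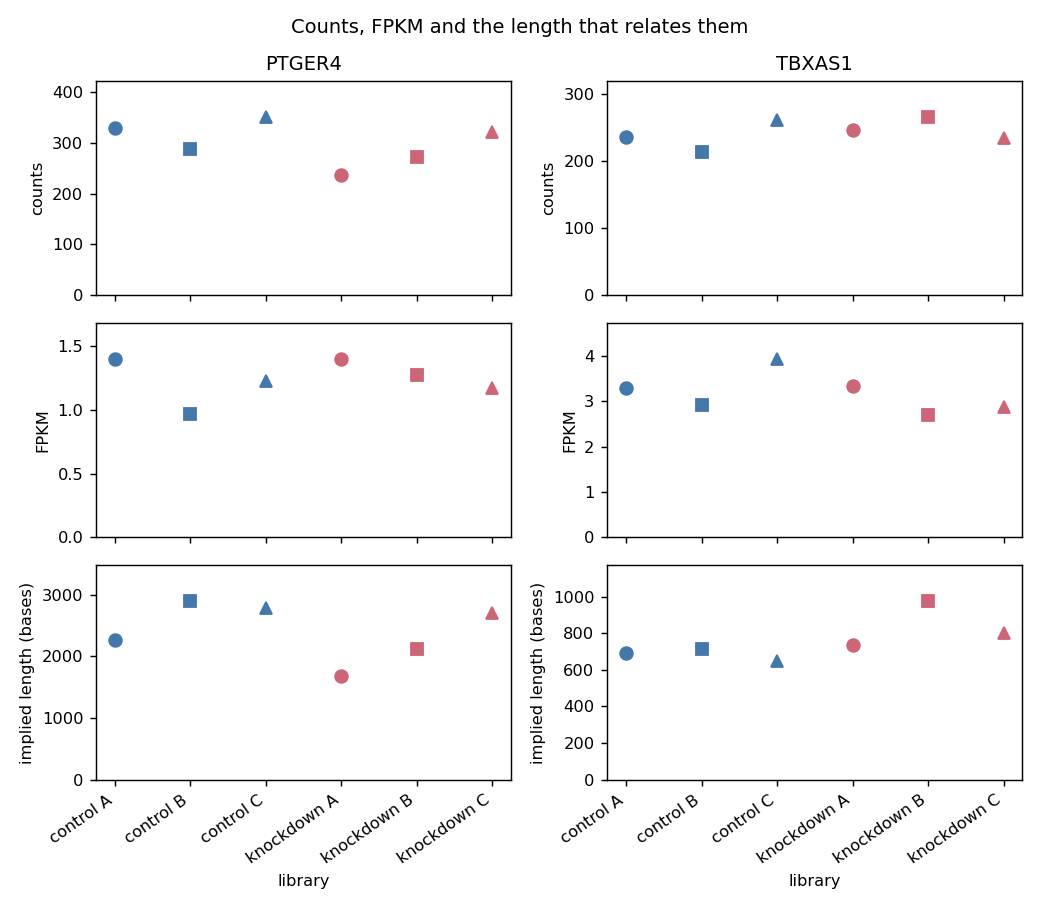
Deposited counts, deposited FPKM and the transcript length in bases that relates them, for PTGER4 (left) and TBXAS1 (right) in each of the 6 libraries, with control in blue and knockdown in red. The implied length of TBXAS1 is 647 to 715 bases in the control and 735 to 976 in the knockdown libraries, and that of PTGER4 runs from 1684 to 2899.

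No member's exons overlap those of another gene in GENCODE 29, but a pair of antisense RNAs starts beside 2 members. They were picked out after their values were seen. PACERR (chromosome 1, 186680622 to 186681446) is a noncoding RNA whose start lies 195 bases from that of PTGS2, on the opposite strand and inside the PTGS2 window printed above. PACERR had 15, 10 and 8 counts in the control and 29, 24 and 27 in the knockdown libraries, all higher. It rose from 0.104 ± 0.037 to 0.274 ± 0.030 CPM (SD, n = 3 each; log2 fold change 1.40, SE 0.35, edgeR adjusted p = 0.00777). PTGES2-AS1 (chromosome 9, 128128529 to 128130628) starts 67 bases from PTGES2 on the opposite strand. PTGES2-AS1 had 62, 74 and 52 counts in the control and 90, 97 and 110 in the knockdown libraries, and was higher by 0.79 on the log2 scale (SE 0.20, edgeR adjusted p = 0.00951). Their partners PTGS2 and PTGES2 did not pass the test. The sources used here do not give a strand setting for the counting.

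The stretch that PTGES2 and PTGES2-AS1 share is shown for that reason, as the 250 bases before the RefSeq start of PTGES2 that lies nearest to PTGES2-AS1 (GRCh38.p14), with the same motifs in capitals.
PTGES2, chr9:128128441-128128690, minus strand: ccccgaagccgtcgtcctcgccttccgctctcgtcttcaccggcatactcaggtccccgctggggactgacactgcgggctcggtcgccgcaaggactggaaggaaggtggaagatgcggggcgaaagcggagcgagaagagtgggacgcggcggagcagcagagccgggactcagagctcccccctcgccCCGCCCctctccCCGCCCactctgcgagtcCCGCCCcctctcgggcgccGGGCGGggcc
It holds GGGCGG 4 times, at -59 to -54, -47 to -42, -29 to -24 and -10 to -5, and none of the other motifs searched. G and C make up 72.4% of it.

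Calls among the wider eicosanoid genes came at rates near those of all genes. Of 63 further genes in the table, 48 were tested, and 6 were higher (12.5%) and 9 lower (18.8%), beside the 16.5% and 16.9% of all tested genes. The 33 others did not pass. The median log2 fold change was -0.06, beside -0.0030 over all genes. Scaling by the library total gave 4 higher and 15 lower, where the calls over all genes moved from 3099 to 1985 higher and from 3171 to 4727 lower. PLA2G2A, PLA2G5, HPGDS, PTGDR, CYSLTR2 and CYP4A11 were at 0 in all 6 libraries.

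Among 8 tested genes of arachidonate release, 3 were higher and 3 lower, beside 16.5% and 16.9% of all tested genes. PLA2G6, a calcium-independent phospholipase, had 1032 to 1136 counts in the control and 1251 to 1402 in the knockdown libraries and rose by 0.46 on the log2 scale (SE 0.09, edgeR adjusted p = 0.0017), a call that limma on log2(FPKM + 1) did not make (0.21, adjusted p = 0.0935). PLA2G12A rose by 0.30 in counts, although FPKM gave -0.03. MGLL, which splits monoacylglycerols, rose by 0.27. DAGLA, which makes the arachidonate-bearing lipid 2-arachidonoylglycerol, fell from 30.1 ± 2.50 to 20.9 ± 1.49 CPM (log2 fold change -0.53, SE 0.09, adjusted p = 0.000685), and its relative DAGLB fell (-0.43), as did the phospholipase PLA2G4C (-0.33). The call of MGLL was lost without control B, control C, knockdown A or knockdown B, that of PLA2G4C without control C or knockdown B, and that of PLA2G12A without knockdown B. Scaling by the library total also ended the calls of MGLL (adjusted p = 0.104) and PLA2G12A (0.0818). MGLL and PLA2G4C were named after their values were seen. Exons of DAGLB overlap those of KDELR2, and exons of PLA2G6, PLA2G12A, DAGLA and PLA2G4C also overlap those of other annotated genes. Of 8 genes of arachidonate supply, 0 were higher and 2 lower (edgeR). LPCAT3, which puts arachidonate into phospholipids, fell by 0.37 on the log2 scale, and ACSL3, an acyl-CoA synthetase, fell by 0.22. Exons of LPCAT3 overlap those of EMG1 on the opposite strand (3773 to 4126 counts), and those of ACSL3 overlap an antisense RNA at 0 counts. The call of ACSL3 was lost without any 1 of 5 of the 6 libraries, all but knockdown C, and without the filter on low counts (adjusted p = 0.0524).

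Of 6 other terminal synthases, 1 was higher and 1 lower, beside 16.5% and 16.9% of all tested genes. PTGDS, a prostaglandin D synthase, had 10, 3 and 7 counts in the control and 43, 40 and 17 in the knockdown libraries, without overlap. PTGDS rose from 0.063 ± 0.034 to 0.346 ± 0.154 CPM (SD, n = 3 each; log2 fold change 2.44, SE 0.47, edgeR adjusted p = 0.0020), which remained far below PTGS1 in FPKM (at most 0.81 in any library). Exons of PTGDS overlap those of AL807752.7, which had 0 counts. PTGES3, which also serves as the co-chaperone p23, fell by 0.24 on the log2 scale (adjusted p = 0.0346), a call lost without control B, control C, knockdown B or knockdown C. Of 5 other receptors tested, 0 were higher and 1 lower. PTGDR2, a receptor for prostaglandin D, had 76, 95 and 174 counts in the control and 31, 29 and 45 in the knockdown libraries, and fell by 1.57 on the log2 scale (SE 0.30, adjusted p = 0.0017). Its exons overlap those of AP000777.3 on the same strand and of CCDC86 on the opposite strand, both of which had lower counts too, and the part of those reads in PTGDR2 was not tested. PTGFR, PTGER1, TBXA2R and PTGFRN did not pass, and PTGER3 and PTGIR were too low to test.

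Of 6 genes of transport and breakdown, 1 was higher and 1 lower, beside 16.5% and 16.9% of all tested genes. PTGR2, a prostaglandin reductase, rose by 0.46 on the log2 scale (SE 0.12, edgeR adjusted p = 0.0111), a call lost without knockdown A (adjusted p = 0.0539). Its exons overlap those of ZNF410 and AC005520.1, which did not pass, and of an antisense RNA, AC005520.5. That RNA had 19 to 30 counts in the control and 57 to 76 in the knockdown libraries (log2 fold change 1.72, edgeR adjusted p = 0.00047). The part of its reads in PTGR2 was not tested. SLCO2A1, the transporter that takes prostaglandins into cells, had 27, 26 and 64 counts in the control and 14, 18 and 19 in the knockdown libraries. SLCO2A1 fell by 1.05 on the log2 scale (SE 0.37, adjusted p = 0.0440), but without control C the change was -0.53 (adjusted p = 0.287), and the call was also lost without any 1 of the knockdown libraries and with DESeq2 (adjusted p = 0.0766). In the leukotriene branch 1 of 9 tested genes was higher and 0 lower: LTA4H, which makes leukotriene B, rose from 40.2 ± 3.32 to 60.4 ± 4.80 CPM (log2 fold change 0.59, SE 0.09, adjusted p = 0.000373). In the epoxygenase branch 0 of 6 were higher and 1 was lower, EPHX1, an epoxide hydrolase (-0.29, SE 0.08, adjusted p = 0.0140), a call lost without control A or control B (adjusted p = 0.0609 and 0.0523). Exons of EPHX1 overlap those of TMEM63A on the opposite strand, and those of LTA4H overlap antisense RNAs at 0 counts.

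**Figure D3:**
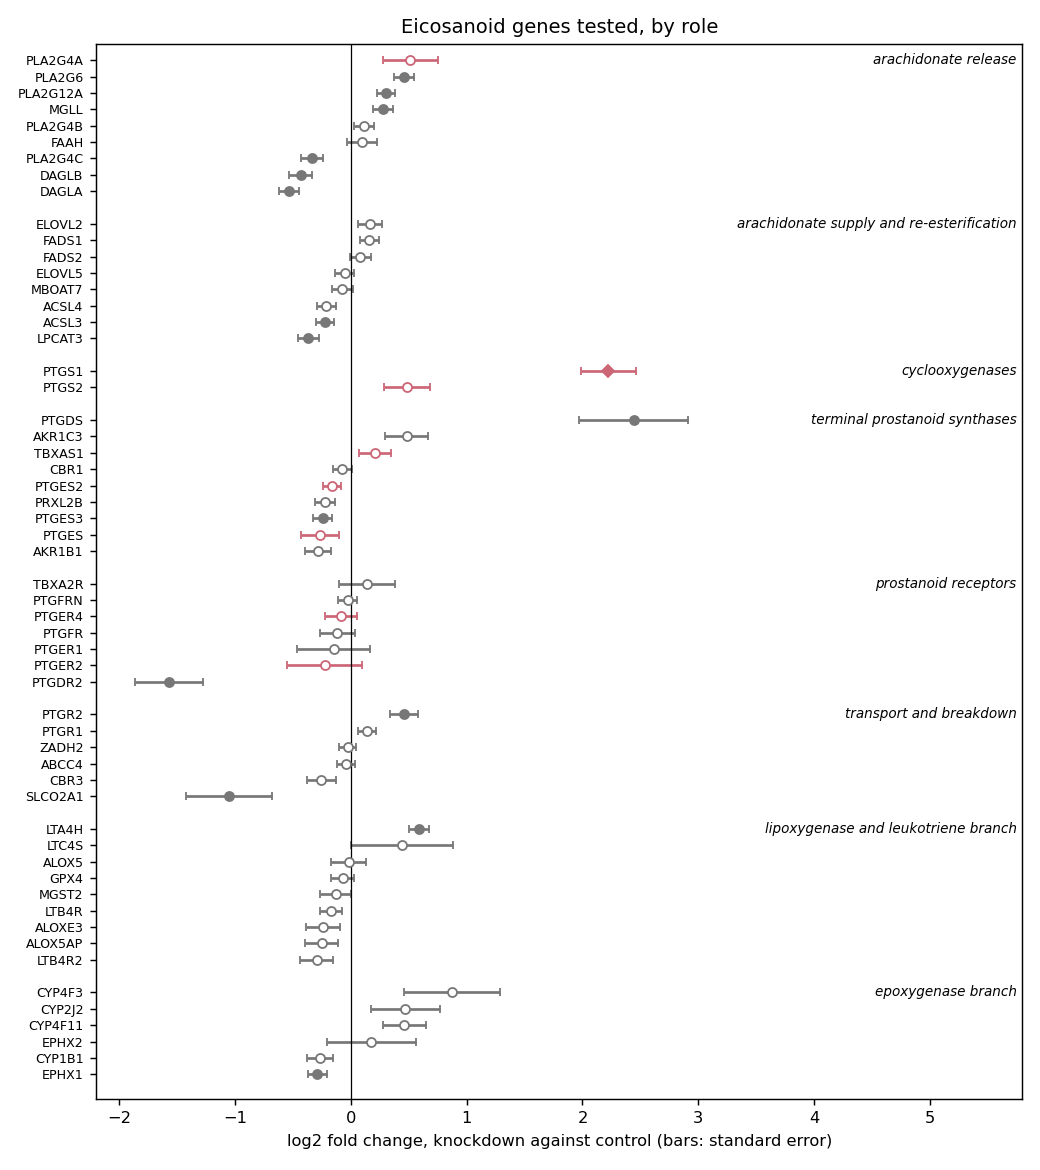
Log2 fold change of knockdown against control with its standard error for the tested eicosanoid genes, grouped by role, with members in red and filled circles for an edgeR adjusted p under 0.05. The PTGS1 diamond has no test because the gene was chosen on this contrast, and the 7 other members are open circles, while 15 other eicosanoid genes are filled.

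Genes linked to prostaglandin signalling were mixed as well. Of 12 tested cAMP-response genes that can follow PTGER2 and PTGER4 activation, 2 were higher and 3 lower. Of all tested genes, 16.5% were called higher and 16.9% lower. AREG, a ligand of the EGF receptor, rose from 4.40 ± 0.241 to 6.64 ± 0.477 CPM (SD, n = 3 each; log2 fold change 0.59, SE 0.11, edgeR adjusted p = 0.0013), and DUSP1, a phosphatase of MAP kinases, rose by 0.31. FOSB fell by 1.34, ATF3 by 0.61 and NR4A3 by 0.70 on the log2 scale (SE 0.26, 0.15 and 0.19). NR4A3, named after its values were seen, lost its call without control C, knockdown A or knockdown B, and DUSP1 without control B, control C or knockdown B.

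Of 8 tested genes that induce PTGS2, 2 were higher and 2 lower, beside 16.5% and 16.9% of all tested genes. CEBPB, a transcription factor, rose by 0.43 (SE 0.09, edgeR adjusted p = 0.0025) and IL1A, a cytokine at 9 to 32 counts, by 1.39 (SE 0.34). EGR1, an immediate-early factor, fell by 0.76 on the log2 scale and IL1R1, the receptor of IL1A, by 0.40, the latter not without control B, knockdown A or knockdown B. Exons of CEBPB and IL1R1 overlap those of antisense RNAs, and the antisense RNA of IL1R1 had 0 counts. Of 8 tested proteins that bind AU-rich elements such as those of PTGS2 mRNA, 1 was higher and 0 lower: ZFP36, which speeds decay of such mRNAs, rose from 50.4 ± 1.95 to 72.7 ± 3.64 CPM (log2 fold change 0.53, SE 0.07, adjusted p = 0.000275).

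The genes whose profile over the 6 libraries lay nearest to that of PTGS1 were sought among 11302 named protein-coding genes with a mean of at least 2 CPM, by the root mean square difference of log2 CPM centred on each gene. The 6 nearest were SYT13 (0.245), FZD8 (0.257), CCDC183 (0.259), HILPDA (0.271), LURAP1L (0.327) and AK5 (0.342). Their means ran from 1.47 (AK5) to 23.0 CPM (HILPDA) in the control group and from 4.81 to 83.6 CPM, for the same genes, in the knockdown group. Each was lowest in library C of both groups, as was PTGS1. The measure takes in both the rise and the C libraries, so large rises and a low C follow from how these genes were chosen. The 6 genes are given with no test. Exons of SYT13, FZD8, CCDC183 and HILPDA overlap those of other annotated genes. On the same scale PTGS1 ran from -1.73 to 1.50, while the other tested members stayed between the -0.91 and 0.57 of PTGER2. PTGES was also lowest in library C of each group, at -0.18 and -0.53, but was not higher in the knockdown group.

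**Figure D4:**
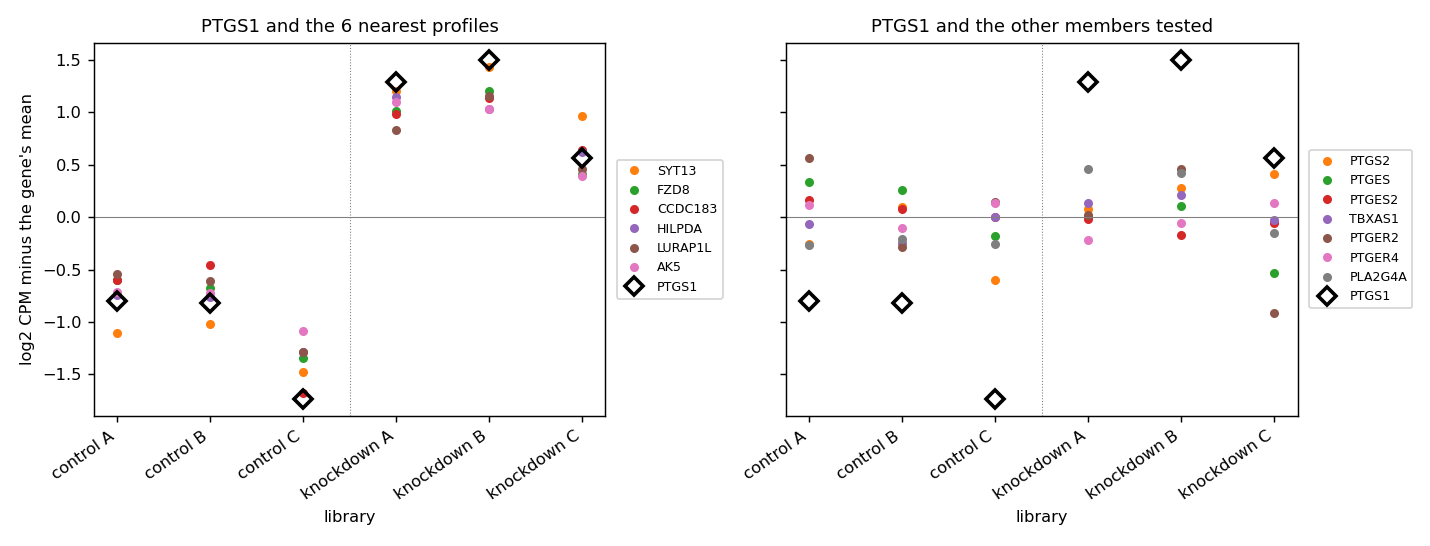
Log2 CPM minus the gene's own mean in each library, for PTGS1 (open diamonds) with the 6 genes of nearest profile (left) and with the 7 other tested members (right). The nearest genes, chosen for their likeness to PTGS1 over these libraries, dip in library C of both groups as it does. The other members stay between -0.91 and 0.57.

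Other cell types that carry PTGS1 were looked for by their markers. Platelet and megakaryocyte markers summed to 1.00 to 1.12 CPM in the control and 0.921 to 1.15 CPM in the knockdown libraries, carried by GP1BA (51 to 92 counts) and ITGA2B (26 to 37), with PF4 and PPBP at no more than 1 count and GP9 at 0 in every library. Mast cell markers summed to 0.113 to 0.173 CPM in the control and 0.288 to 0.497 CPM in the knockdown libraries, without overlap. The tryptase genes TPSAB1 (9 to 32 counts; log2 fold change 1.48, SE 0.35, edgeR adjusted p = 0.0067) and TPSB2 (3 to 15 counts; 1.66, SE 0.46, adjusted p = 0.0143) carried that sum and rose, while CPA3 and MS4A2 were at 0 and KIT had at most 1 count. The part of such cells in the PTGS1 difference was not tested. Monocyte and macrophage markers summed to 49.5 to 58.7 CPM in the control and 88.0 to 115 CPM in the knockdown libraries, also without overlap. Such separation is common here, since 47.4% of all tested genes had groups without overlap in CPM. CD68, a lysosomal protein, made up nearly all of the monocyte and macrophage sum, and the leukocyte marker PTPRC had at most 4 counts in any library. Fibroblast markers were lower in the knockdown libraries (2.16 to 2.35 against 3.85 to 4.58 CPM). COL1A1 (106 to 211 counts) and PDGFRB (72 to 239) carried most of the fibroblast sum, with LUM at 8 to 53 counts. DCN had at most 2 counts and COL1A2 at most 1. Endothelial markers were at 0.134 to 0.245 CPM in the control and 0.150 to 0.185 CPM in the knockdown libraries.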

How the data were processed

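RNA of 6 libraries was analysed, 3 with a control shRNA and 3 with a METTL3 shRNA. The authors deposited whole-number counts and FPKM values for 61860 genes, each with 6 columns. STAR 2.7.10b, Salmon and GRCh38 appear in the submitters' processing notes without their roles, and the sources used here give neither annotation nor strand setting. The other 3 columns were assigned to METTL3 shRNA by elimination, and METTL3 is the check of that. Counts were filtered (filterByExpr, leaving 18740 genes), scaled by TMM and tested with edgeR 4.0.16 (quasi-likelihood, Benjamini-Hochberg at 0.05) in R 4.3.3, and standard errors were derived from the F statistic. Replicate libraries differed beyond counting error (chi-square divided by its degrees of freedom, 15.2 to 57.3). The fit was tested on simulated counts in which 200 of 18740 genes were changed, far fewer than were called here. It recovered 45% of the genes changed by 0.5 on the log2 scale and 78% of those changed by 1. These rates need not hold where many more genes change. Of its 134 calls there, 11 were false. Alternatives were DESeq2-type size factors, library totals, DESeq2 1.42.0, no filter, limma 3.58.1 on log2(FPKM + 1) and log2(FPKM + 0.1) with 0.5 FPKM in 3 libraries, log2(FPKM + 1) unfiltered, a column-letter block and leaving out each library.

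Named were METTL3, the members, up to 4 genes of each pathway list with the smallest p and the 6 genes nearest PTGS1 in profile. Exceptions are marked, and the cell type markers stand outside this rule. Of those markers, only TPSAB1 and TPSB2 are given with a test. Members and lists were chosen with earlier results of these data known. Of 105 listed pathway symbols, 104 were found. Annotation came from GENCODE 29, which held 58308 of the identifiers, and upstream sequences from RefSeq (GRCh38.p14), with an entry for 9 of the 10 members; PTGIS had none. Nearest-profile genes carry no p, because PTGS1 chose them. With 100534896 to 103624456 counts per library, the spread between libraries rather than depth limits the precision except for the weakest genes.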

Additional observations from a re-analysis of the deposited data

How the results depend on the processing

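PTGS1, chosen for its rise in these same libraries, was higher under all 15 alternatives, which is a description and no further support. Its log2 fold change ran from 1.79 (limma on log2(FPKM + 1)) to 2.46 (without knockdown C). Scaling by library totals gave 1985 genes higher and 4727 lower in all, 1 of the other members lower (PTGES2) and 4 pathway genes higher and 15 lower. Limma on log2(FPKM + 1), on log2(FPKM + 0.1) and unfiltered gave 1588, 1568 and 1027 genes higher and 3730, 3710 and 2244 lower, 1 member lower each (PTGES2) and 2, 2 and 3 pathway genes higher; PLA2G12A reversed to -0.027, -0.028 and -0.027. The cause was not tested. With the column letter as a replicate block, 1 member was lower (PTGES, log2 fold change -0.27, adjusted p = 0.0324), with 3421 genes higher and 3564 lower in all. Same-letter libraries deviated with correlations of -0.026 (A), -0.044 (B) and 0.146 (C), the last being the highest of any control and knockdown library. Libraries of different letters gave -0.096 to 0.122, so the letters were not taken as pairs. Whether the C libraries share an effect was not tested. Leaving out each library in turn gave 2053 to 3265 genes higher and 1959 to 3324 lower (both lowest without knockdown B), 0 to 1 members higher, and 5 to 11 pathway genes lower (5 without knockdown B). Without the C libraries of both groups, chosen after the values of PTGS1 were seen, 1 member was higher (PLA2G4A). The unfiltered FPKM fit also lost the calls of PTGDR2, SLCO2A1, FOSB, ATF3, DUSP1, CEBPB, EGR1, IL1R1 and PTGES2-AS1, and each FPKM fit those of PLA2G6, MGLL and PLA2G4C (NR4A3 too). PTGIS and HPGD, at no more than 8 counts, are limited by depth. Pathway genes higher fell to 4 without knockdown A or knockdown B.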
